A study of Caenorhabditis elegans with 2 samples.

Results

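The genes described here code for proteins of sperm in Caenorhabditis elegans, and the measurement is where the chromatin protein XND-1 was found at them. All protein-coding genes of the WBcel235 annotation whose names begin with msp-, ssp- or spe- were taken, which gave 72 of 19973 genes: 31 msp genes, 12 ssp genes and 29 spe genes. XND-1 was mapped by ChIP-seq, in which DNA bound to a protein is precipitated with an antibody and sequenced. The antibody was against GFP by the sample description, which is followed here, while the antibody label reads xnd-1. The animals were whole young adult hermaphrodites of strain QP0661, collected 50 h after release of starved L1 larvae, and they expressed XND-1 fused at its C terminus to GFP and FLAG. The 2 biological replicates form 1 group, and nothing else was varied. Whole animals pool germline and soma, so a summit cannot be assigned to the sperm-forming or the oocyte-forming germ line, and no RNA was measured.

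C. elegans hermaphrodites make sperm first and then switch to oocytes, and the sperm crawl by a cytoskeleton built of major sperm protein instead of actin. The msp genes code for major sperm protein, which also signals to oocytes, and they are a family of near-identical copies in a few genomic clusters. The ssp genes code for small relatives of major sperm protein. The spe genes were named for mutants with defective sperm, and they code for unrelated proteins that serve organelle formation, sperm activation, fertilization or the early embryo. XND-1 is a germline chromatin protein known for its place on autosomes and its role in crossover formation on X. None of the 72 genes lies on X. The msp genes lie on chromosomes II (13 genes) and IV (18), the ssp genes on I (4), IV (6) and V (2), and the spe genes on I (12), II (1), III (2), IV (9) and V (5).

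A gene was called bound when a peak summit of the IDR-thresholded list lay between 500 bp upstream and 200 bp downstream of any of its annotated 5′ ends. IDR is the irreproducible discovery rate, a filter on peaks that 2 replicates do not rank alike. That list held 1841 peaks, the looser pooled list made from both replicates 24467, that of replicate 1 22772 and that of replicate 2 22364. Each peak carries a signalValue, a score of the authors' caller with no unit given, which is compared only within a list. The score ran from 65.6 to 2548 in the IDR-thresholded list and from 12.9 to 2548 in the pooled list. All coordinates are ce11 (WBcel235), 1-based.

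The strongest XND-1 peak at any of the 72 genes lay between spe-39 and spn-4, which are transcribed away from each other. The 300 bases around this summit, V:6784921-6785220 on the plus strand of the RefSeq genome, are shown because the word TTTCGCG, in capitals, lies under the summit.
spn-4 and spe-39: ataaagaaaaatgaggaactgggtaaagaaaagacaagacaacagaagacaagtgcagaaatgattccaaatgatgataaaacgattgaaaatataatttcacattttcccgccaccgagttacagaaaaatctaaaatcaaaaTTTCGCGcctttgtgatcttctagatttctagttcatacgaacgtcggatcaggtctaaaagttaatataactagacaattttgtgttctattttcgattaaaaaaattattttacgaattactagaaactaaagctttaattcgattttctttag
The word spans V:6785065-6785071, and its centre is 2 bp from the summit at V:6785070.

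The msp promoters shared another feature, shown in stretches of 90 bases that run from 150 to 61 bp upstream of the annotated 5′ end, 5′ to 3′ on the gene's own strand, from the same genome. Capitals mark the word GATAAG. The first 5 stretches are from the 3 msp clusters, at II:4786342-4786431 (minus strand), II:4892755-4892844 (minus), II:4932877-4932966 (plus), IV:5297812-5297901 (plus) and IV:9769896-9769985 (plus). The last 2, at II:5797777-5797866 (plus) and IV:12454276-12454365 (minus), are shown because they lack the word.
msp-3: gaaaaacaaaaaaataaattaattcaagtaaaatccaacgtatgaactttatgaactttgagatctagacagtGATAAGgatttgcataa
msp-33: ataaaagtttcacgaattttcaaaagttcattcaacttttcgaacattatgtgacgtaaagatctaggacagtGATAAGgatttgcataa
msp-152: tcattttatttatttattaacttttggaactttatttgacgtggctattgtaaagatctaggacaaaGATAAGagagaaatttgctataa
msp-113: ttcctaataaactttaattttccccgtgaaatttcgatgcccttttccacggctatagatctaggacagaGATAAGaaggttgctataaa
msp-78: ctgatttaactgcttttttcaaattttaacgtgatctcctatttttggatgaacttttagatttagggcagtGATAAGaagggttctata
msp-142: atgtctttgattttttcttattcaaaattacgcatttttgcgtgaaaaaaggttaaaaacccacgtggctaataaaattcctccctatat
spe-44: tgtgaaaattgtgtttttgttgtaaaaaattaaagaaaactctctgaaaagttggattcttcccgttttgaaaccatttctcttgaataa

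XND-1 was bound at 4 spe genes and at no msp or ssp gene. Over all protein-coding genes, 6.68% were bound (1334 of 19973). Among the 72 sperm protein genes the share was 5.56% (4 genes, exact Clopper-Pearson 95% interval 1.53% to 13.6%), which is near that background. It was 13.8% of the spe genes (4 of 29, interval 3.89% to 31.7%) and 0 of the 43 msp and ssp genes, with an interval of 0% to 8.22%. By the simpler limit of 3 counts, 0 of 43 allows a share of up to 6.98%. No member lies on X, where few genes were bound, and the share over autosomal genes was 7.68%. It is above the limit of 3 counts and inside the exact interval. All 43 msp and ssp genes have a window of 701 bp, and over all genes with such a window, X included, 5.31% were bound. That share is below the limit of 3 counts and also inside the exact interval. A count of 0 in 43 genes thus does not settle whether these genes lie below either background. The intervals cover only the number of genes counted, and neighbouring genes and family copies are not independent. The lists give no read numbers, so the depth of the libraries is unknown.

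**Figure D1:**
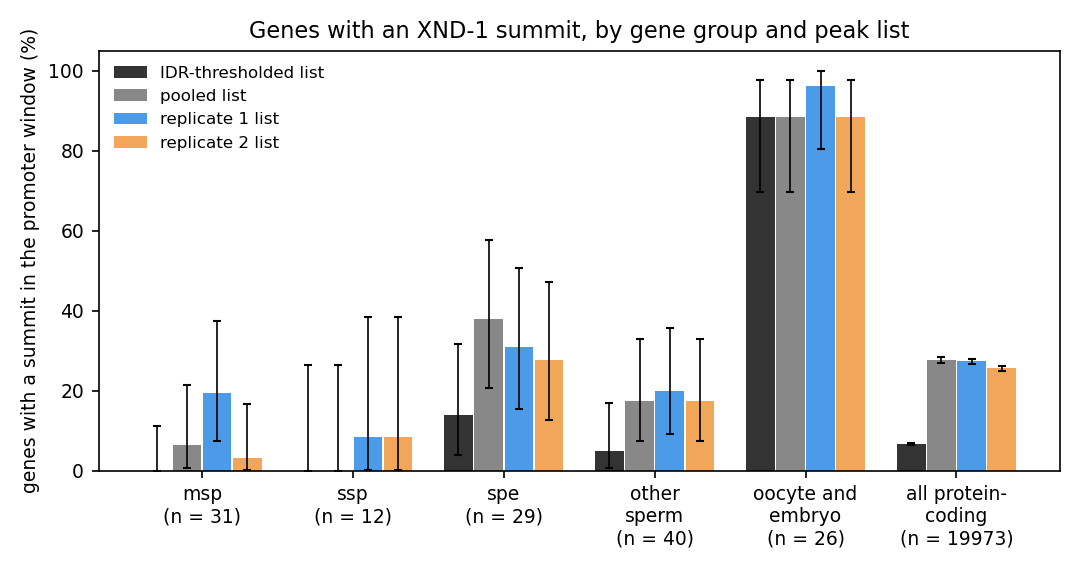
Share of genes with an XND-1 summit in the promoter window (y axis, percent) for 6 gene groups (x axis, number of genes given), in the IDR-thresholded, pooled, replicate 1 and replicate 2 lists. Bars are shares, and error bars are exact 95% intervals over genes. The msp and ssp groups have no gene in the IDR-thresholded list, spe genes have 4 of 29, and oocyte and embryo genes 23 of 26.

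In the pooled list, which holds many weaker peaks, spe genes had summits more often than msp and ssp genes did. A pooled summit lay in the window of 27.7% of all protein-coding genes (5525 genes) and 30.2% of the autosomal ones. It did so for 11 of 29 spe genes (37.9%, interval 20.7% to 57.7%) and for 2 of 43 msp and ssp genes (4.65%, interval 0.568% to 15.8%). The msp and ssp interval lies below the share over all genes, and the spe interval includes it. In the replicate 1 list the msp and ssp share was 16.3% (interval 6.81% to 30.7%), which includes the 27.3% over all genes, and in the replicate 2 list it was 4.65% (0.568% to 15.8%), below the 25.6% over all genes. The difference between spe genes and msp and ssp genes was 33.3 percentage points (Newcombe 95% interval 14.6 to 51.7). This interval counts genes as if they were independent, which neighbours and family copies are not, so it describes the counts and is no test. From the list of replicate 1 alone it was 14.8 points, with an interval of -4.66 to 34.7 that includes 0, and from replicate 2 alone 22.9 points (6.12 to 41.4). All 43 msp and ssp genes have a single annotated 5′ end and a window of 701 bp, whereas 10 spe genes have longer windows. Among genes with a 701 bp window, 6 of 19 spe genes had a pooled summit (31.6%) and 1 was bound, beside 22.9% and 5.31% over all such genes. These 2 shares are also the background of equal window length for the msp and ssp genes, of which 4.65% had a pooled summit and 0 were bound. Of the 10 spe genes with longer windows, 5 had a pooled summit and 3 were bound, where the shares over all such genes were 41% and 10.5%. The 3 bound calls did not need the added length. Their IDR-thresholded summits lay 477 and 275 bp (spe-15), 31 bp (spe-48) and 381 and 159 bp (spe-39) upstream of the outermost 5′ end. That is inside the 701 bp window of this 5′ end alone, and the spe-39 window is only 707 bp long. Pooled summits at spe-47 and spe-9 also lay there, 410 and 374 bp upstream.

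Genes of the other gamete were often bound in the same lists, in a list that was itself chosen with earlier results of these data known and so supports nothing on its own. In this list of 26 oocyte and early embryo genes, among them rme-2 (the yolk receptor), cpg-1 (an eggshell proteoglycan) and oma-1 (a regulator of oocyte maturation), 23 were bound (88.5%, interval 69.8% to 97.6%). Their scores ran from 70.2 at lin-41 to 2040 at cpg-1, with a median of 640. Another list, also chosen with earlier results known, held 40 other genes with roles in sperm or in the choice of the sperm fate. Over all protein-coding genes 6.68% were bound, and of these 40 a similar share, 2 genes (5%). These were fog-1, an RNA-binding protein that specifies sperm, with a score of 197, and wee-1.3, a cell cycle kinase, with 80.6. A pooled summit was present at 7 of the 40 (17.5%), where 27.7% of all protein-coding genes had one.

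**Figure D2:**
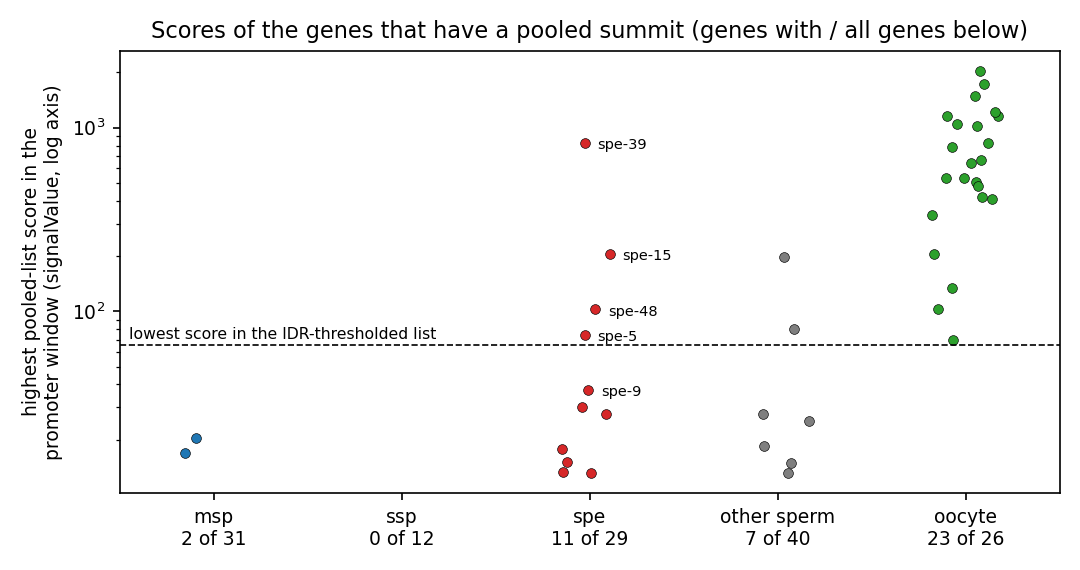
Highest pooled-list score in the promoter window (y axis, signalValue, log axis) for each gene that has a pooled summit, by group (x axis, with genes that have one of all genes). The dashed line is the lowest score of the IDR-thresholded list. The 2 msp genes and 7 of the 11 spe genes lie below it, and spe-39 at 828 is the same summit as that of spn-4 among the oocyte genes.

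Of the bound spe genes, spe-39 had by far the strongest peak. It codes for a protein of vesicle and lysosome trafficking that is needed for the membranous organelles of sperm and also acts in other tissues. Its main summit, at V:6785070, scored 828 and ranked 77th of 24467 in the pooled list. In replicate 1 it scored 345 (rank 105) and in replicate 2 it scored 479 (rank 61), and the 2 summits were 17 bp apart. The gene spans V:6785451-6787864, and this summit lay 381 bp upstream of it and 167 bp upstream of spn-4, a maternal RNA-binding protein gene. Within the same peak interval, V:6784828-6785433, a further summit at V:6785292 scored 343 (rank 322), 159 bp upstream of spe-39 and 389 bp upstream of spn-4. The stronger summit was thus the one nearer to spn-4 and the weaker one nearer to spe-39. Both lay in the 547 bases between the 5′ ends, so which gene either belongs to cannot be told apart, and spn-4 is 1 of the 23 bound oocyte and embryo genes.

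The summit of spe-15 had no such neighbour. This gene, I:1446497-1465358 on the plus strand, codes for a class VI myosin that sorts components as spermatids bud off. Its main summit at I:1446020 scored 205 (rank 598), 477 bp upstream of the gene. A second one at I:1446222 scored 157 (rank 764), 275 bp upstream. Neither lay in the window of another protein-coding gene. The main summit ranked 686th in replicate 1 and 553rd in replicate 2, with summits 20 bp apart. A further IDR-thresholded summit lay inside the gene at I:1447066, with a score of 143 and outside the windows. A tRNA gene at I:1447138-1447210 is next to it.

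At spe-48, I:1950594-1958527 on the minus strand, the summit at I:1958558 scored 102 (rank 1148), with ranks of 1133 and 1216 in replicates 1 and 2 and summits 20 bp apart. It was 31 bp upstream of spe-48 and 149 bp upstream of Y51F10.11, which is transcribed the other way, with 179 bases between the 5′ ends. At spe-5, I:5101665-5103476 on the minus strand, which codes for a B subunit of the proton pump V-ATPase, the summit at I:5103353 scored 74.6 (rank 1610). It lay 123 bp downstream of the 5′ end, in a coding exon. The gene chp-1 lies upstream on the same strand and ends 104 bp before spe-5 begins. The spe-5 summit had rank 1357 (score 44.9) in replicate 1 and rank 2151 (score 30.8) in replicate 2, which is outside the 1841 strongest peaks of that replicate. Read by replicate, the 1841 strongest peaks of replicate 1 called 4 of the 72 genes, with 6.67% of all genes called, and those of replicate 2 called 3, with 6.37%.

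**Figure D3:**
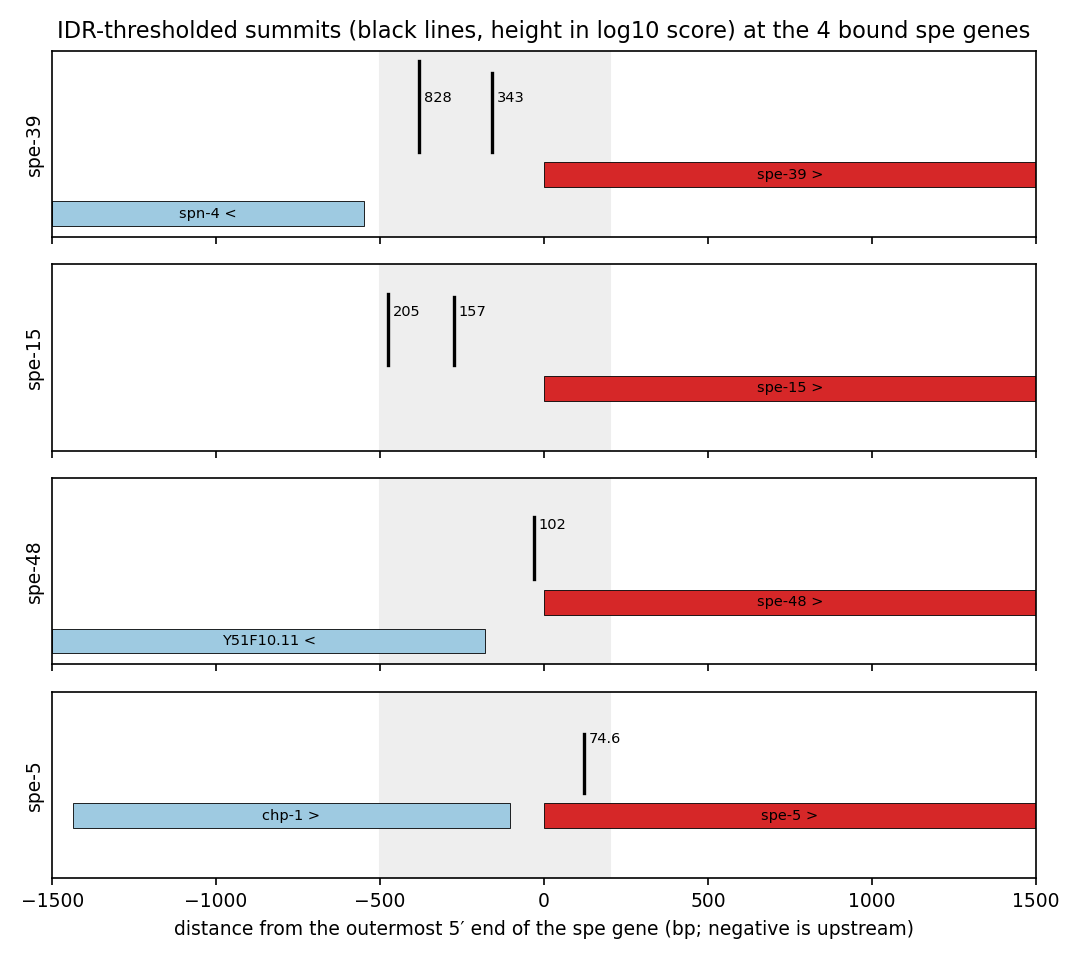
IDR-thresholded summits in the promoter windows of the 4 bound spe genes (black lines, height in log10 of the score, score printed beside each). The x axis is the distance in bp from the outermost annotated 5′ end of the spe gene (negative is upstream). Summits outside the windows, such as that inside spe-15 at I:1447066, are not drawn. Boxes are protein-coding genes with their direction of transcription, and grey shading is the promoter window. The spe-39 and spe-48 summits lie between divergent genes, the 2 spe-15 summits have no neighbour, and the spe-5 summit lies inside the gene.

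Below the IDR threshold, 7 more spe genes had a pooled summit, with scores of 13.3 to 37.2. No member ranked between spe-5 at 1610 and spe-9 at 3743, so the members just inside and just outside the cut at 1841 were well separated, with scores of 74.6 and 37.2. The spe-9 gene codes for a sperm surface protein with EGF repeats that is needed for fertilization. Its summit lay inside the gene at I:11584886, 408 bp upstream of an internal annotated 5′ end and beside a tRNA gene at I:11584787-11584859. The replicates put it at ranks 5585 (score 16.2) and 2657 (score 26.2), with summits 149 bp apart.

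The casein kinase gene spe-6, which acts in sperm assembly and activation, had summits at III:11505650 (27.6, rank 6127) and III:11505361 (26.3). It faces the divergent gene Y66D12A.21 across 185 bases. Both replicates listed it, at rank 6026 in replicate 1 and 12676 in replicate 2.

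A further 4 were weak and not shared by the replicates. The MSP-domain gene spe-47 scored 17.7 (rank 14407) and was listed in replicate 2 only, and ctn-1 ends 168 bp upstream of it on the same strand. The gene spe-18, which acts in assembly of the fibrous bodies that hold major sperm protein, scored 15.1 and was listed in replicate 1 only, with hpr-17 ending 64 bp upstream. The sperm activation gene spe-29 scored 13.4 and was listed in neither replicate. The gene spe-44 codes for a transcription regulator of spermatogenesis. Its summit at IV:12454499, 284 bp upstream, scored 13.3 (rank 23495) and was listed in replicate 2 only. It faces smz-1, a sperm meiosis gene, across 834 bases. In all, 6 of the 29 spe genes had a summit in both replicates' lists (20.7%), where 17.5% of all genes did.

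No summit of any of the 4 lists lay in the window of 17 of the 29 spe genes. Among these are spe-8, a kinase of the sperm activation pathway, and its pathway members spe-12, spe-19, spe-27 and spe-43. Also among them are spe-4, a presenilin of the membranous organelles, spe-10, a palmitoyltransferase, spe-11, a paternal factor for the embryo, and spe-26, a kelch-type protein. The fertilization genes spe-36, spe-41, spe-42, spe-49 and spe-51 had none either. The fertilization gene spe-38 had a single summit, in replicate 1, with a score of 8.08, near the lowest of that list (7.74). The nearest IDR-thresholded summit was a median of 12197 bp from a 5′ end of a spe gene, with a range of 31 to 131210 bp. The median was 24923 bp over all protein-coding genes and 232 bp over the oocyte and embryo genes. All protein-coding genes include 2731 genes on X, of which 10 were bound, and no median over autosomal genes alone is given.

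At the msp and ssp genes the few summits were weak and none was shared by the replicates. In the pooled list, msp-64 scored 20.4 (rank 10804) and msp-74 scored 16.9 (rank 15774), the former 104 bp and the latter 65 bp inside the gene. The msp-64 summit, at II:5810226, is also in the window of ZK1248.5, which begins 183 bases away in the other direction. In replicate 1 the msp-64 window held a summit with a score of 10.5. The msp-74 window held one with a score of 11.7 at II:5115536, which is another place than the pooled summit at II:5115270, 201 bp upstream of msp-74 and also in the window of srsy-1. Replicate 2 listed neither gene. Summits were listed in replicate 1 only at msp-36 (8.09), msp-49 (9.53), msp-57 (9.22), msp-59 (10.1) and ssp-34 (8.45), and in replicate 2 only at msp-45 (8.35) and ssp-33 (12.9). The msp-59 summit, at IV:5313531, lay 420 bp upstream of msp-59 and 116 bp inside the divergent gene ZK354.2, so it is in both windows. In all, 7 of the 43 genes had a summit in replicate 1, 2 had one in replicate 2 and 0 had one in both. Over all genes the shares were 27.3% in replicate 1, 25.6% in replicate 2 and 17.5% in both. Of the genes with a summit in either replicate, both listed 6 of 11 spe genes (54.5%) and 3492 of 7084 protein-coding genes (49.3%). The other 34 msp and ssp genes had no summit in any of the 4 lists.

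**Figure D4:**
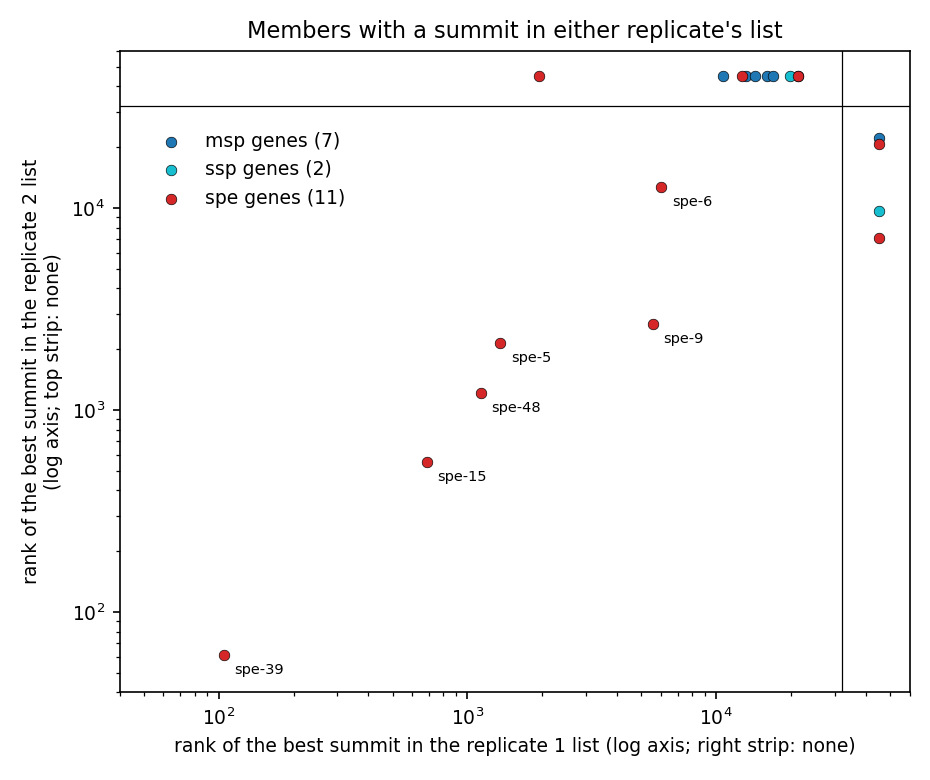
Rank of the best summit in the promoter window in the replicate 1 list (x axis, log) and the replicate 2 list (y axis, log), for the 20 sperm protein genes with a summit in either. Points in the top and right strips have none in the other replicate. All 9 msp and ssp genes lie in the strips, and the 6 labelled spe genes are listed in both.

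Most msp genes sit in 3 clusters, and XND-1 summits were present around them. A cluster here is a run of at least 5 msp or ssp genes with gaps of at most 500000 bp. The cluster at II:4785898-5200180 holds 10 msp genes and 112 other protein-coding genes, of which 9 were bound (8.04%), where 8.55% of the genes on chromosome II were bound. It had 29 IDR-thresholded summits per Mb, beside 27.5 over chromosome II. The cluster at IV:4994371-5316906 holds 9 msp and 2 ssp genes. Of its 70 other genes 2 were bound (2.86%), and it had 9.3 summits per Mb, beside 17.8 over chromosome IV. The cluster at IV:9689015-10143740 holds 9 msp and 3 ssp genes. Of its 122 other genes 7 were bound (5.74%), with 17.6 summits per Mb, where 6.61% of the genes on chromosome IV were bound. The nearest IDR-thresholded summit to an msp gene was a median of 21052 bp away and never nearer than 2142 bp, at msp-31. For the ssp genes the median was 23074.5 bp and the nearest was 1399 bp, at ssp-34.

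Shared divergent promoters were present at 20 of the 72 genes (27.8%), of which 2 were bound. A gene was counted as divergent when any annotated 5′ end of a protein-coding gene on the other strand lay within 1000 bp upstream of one of its own. That held for 12 of 31 msp genes (38.7%), 2 of 12 ssp genes and 6 of 29 spe genes (20.7%), and for 18.7% of all protein-coding genes. Over all genes, 17.1% of the divergent ones and 4.29% of the others were bound. No divergent msp or ssp gene was bound. In 1 pair both genes were members, msp-63 and msp-142, with 478 bases between them. Other msp genes faced unrelated genes at short range, such as msp-36 and C04G2.5 with 161 bases between, and msp-40 and C33F10.8 with 180. The msp-38 gene lies within dhs-12, a gene on the other strand, and was counted through an internal 5′ end of dhs-12 across 242 bases. Of the 6 divergent spe genes, spe-39 and spe-48 were bound, spe-6 and spe-44 had only weak pooled summits, and spe-46 (facing hgo-1, 835 bases) and spe-49 (facing K12B6.4, 83 bases) had none. Of the 4 bound spe genes, 2 were thus divergent and 2 were not.

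The msp genes are near-identical copies, and a sequencing read that fits several places may be dropped or placed at random. How the authors treated such reads is not given in the sources used here. The share of 36-base words in the window that occur at more than 1 place in the genome had a median of 29.6% over msp genes, 7.58% over ssp genes and 0% over spe genes and all genes. It was high in the 200 bp downstream of the msp 5′ ends (median 80.1%), where the near-identical coding sequence lies, and lower in the 500 bp upstream (8.82%). The upstream median over all genes was 0%. Any repeated word lay in that upstream part at 90.3% of msp genes and 21.8% of all genes. Any repeated word was present in 39 of 43 msp and ssp windows, 10 of 29 spe windows and 25.2% of all windows. Most msp and ssp genes, 30 of 43, had between 10% and 50% of repeated words. In that range 7.04% of all genes were bound and 24% had a pooled summit, close to the 6.97% and 28.7% of genes with no repeated word. Of these 30 msp and ssp genes, 0 were bound and 2 had a pooled summit. Above 50% of repeated words, where 6 msp or ssp genes lie, 1.29% of all genes were bound and 3.51% had a pooled summit. All msp windows held repeated words. The 4 genes with none were ssp-16, ssp-34, ssp-35 and ssp-37, which had no summit in the IDR-thresholded or pooled list, and ssp-34 had its weak summit in replicate 1. The part of repeated sequence in the low msp and ssp share was not tested beyond these counts.

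**Figure D5:**
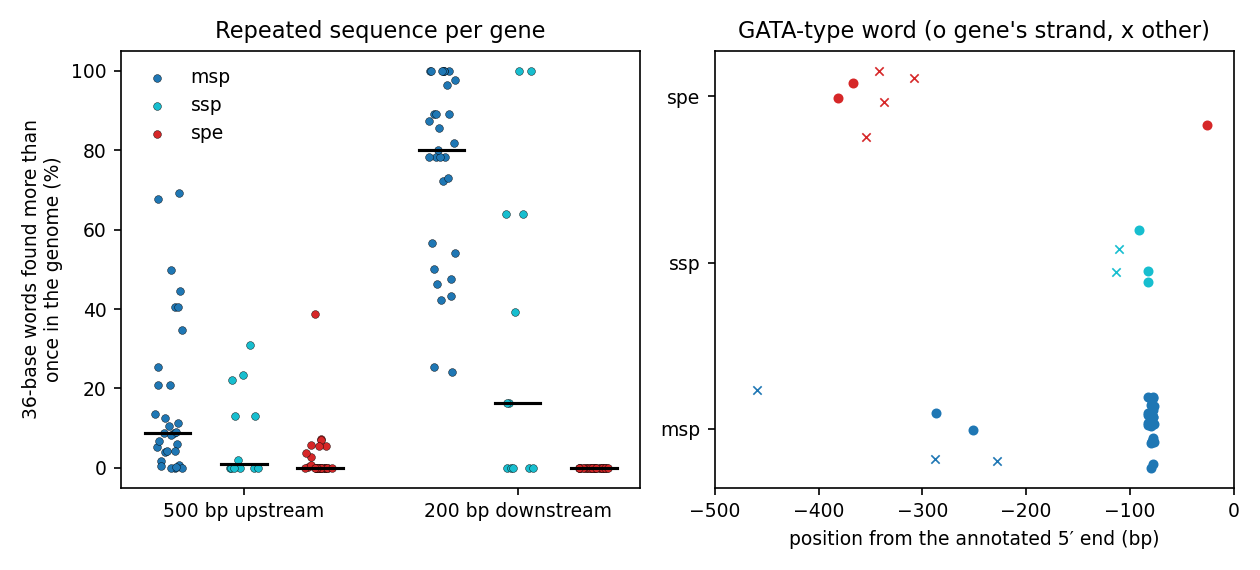
Left, share of 36-base words found at more than 1 place in the genome (y axis, percent) in the 500 bp upstream and 200 bp downstream of the 5′ end, with 1 point per gene and a line at the median. Right, positions of the word GATAAG (x axis, bp from the annotated 5′ end) on the gene's strand (circles) and the other strand (crosses) in the 3 families. The msp points pile up at 83 to 77 bp upstream, and no spe point lies there.

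The msp promoters shared sequence that the spe promoters did not. The word GATAAG, searched on both strands of the whole window, was present at 25 of 31 msp genes (80.6%), 7 of 12 ssp genes, 7 of 29 spe genes (24.1%) and 33% of all protein-coding genes. GATAAG is a binding word of GATA factors, among them ELT-1, which is known to bind msp promoters. On the gene's own strand, it began 83 to 77 bp upstream of the annotated 5′ end at 24 of 31 msp genes (77.4%), at 2 ssp genes that both carry the name ssp-9, at 0 spe genes and at 0.416% of all genes. A further word, AGATCT, lay 150 to 61 bp upstream at 22 of 31 msp genes (71%), 0 ssp genes, 0 spe genes and 2.02% of all genes. It is in the stretches of msp-3, msp-33, msp-152 and msp-113 printed above. Both distances were chosen after the sequences had been seen, and copies of a gene family share sequence by descent, so these shares are descriptions. A shorter word, GATAA, which is part of GATAAG, was present in 87% of all windows and did not separate the families.

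The CG-rich word under the spe-39 summit was present at 3 of the 4 bound spe genes and at 4 other members. TTTCGCG, on either strand of the window, was found at 29.9% of the 1334 bound protein-coding genes and 8.8% of the others. It was found at spe-15, spe-48 and spe-39 among the bound spe genes, at 1 of the 25 spe genes that were not bound (spe-44), and at 3 of 43 msp and ssp genes (msp-59, msp-65 and ssp-34). The word's centre was 2 bp from the spe-39 summit, 55 bp from that of spe-15, 72 bp from that of spe-48 and 82 bp from the weak one of spe-44. At the 3 msp and ssp genes the nearest pooled summit was 495 to 3741 bp from the word. Longer windows hold more words, and those of spe-15 and spe-48 are 2103 bp and 1784 bp long. At both genes, though, the word lay between 500 bp upstream and 200 bp downstream of the outermost 5′ end. Among genes with a 701 bp window, the word was at 1 of 19 spe genes (5.26%), 6.98% of msp and ssp genes and 7.74% of all such genes. That count leaves out spe-15, spe-48 and also spe-39, whose window is 707 bp long. The overlapping word TTCGCGC was present at 0 msp and ssp genes, 2 spe genes and 5.14% of all genes. The E-box word CACGTG was present at 18.6% of msp and ssp genes, 31% of spe genes and 14.6% of all genes. The word is a match of letters, and the factor that reads it was not measured.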

How the data were processed

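Peak lists of XND-1 ChIP-seq on ce11 were used: 1 per replicate, 1 pooled and 1 IDR-thresholded, each made with a control alignment per the deposited file descriptions. The control itself was not used here. The aligner, caller and IDR cut-off are not given in the sources used here. The score (signalValue) is the authors', as deposited, and served to order and describe peaks of 1 list at a time. Per the labels, the replicates are separate biological samples.

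Genes, names and 5′ ends came from the Ensembl release 115 annotation of WBcel235, and sequence from the RefSeq genome of the same build, whose chromosome lengths hold every peak. A summit in a window from 500 bp upstream to 200 bp downstream of any 5′ end counted for the gene, and a summit in several windows counted for each. Shares carry exact Clopper-Pearson 95% intervals and the difference a Newcombe interval. No list was tested. A count of 0 was given the limit of 3 counts. The members, comparison lists and words were chosen with earlier results of these data known. Named genes are bound members and genes sharing their summit, members with a summit in 1 replicate, and bound genes of the comparison lists. Also named are spe-4, spe-6, spe-8, spe-9, spe-11, spe-26, spe-38 and spe-44. For the pooled list the rule was the 12 highest spe genes and the 12 highest msp or ssp genes. Only 11 spe genes and 2 msp or ssp genes had a summit there. The divergent neighbours, unbound spe genes, genes named for a sequence word, a printed stretch or the lack of repeated words, and genes nearest a summit were named after their values were seen. The values of 1 spe gene are not reported here by name, and it is kept in the counts.

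The count of summits in windows and the counts of repeated words were tested on simulated data. Alternatives were other windows, stronger or looser lists, any overlap, each replicate alone and longer words. The assignment of a summit to the nearest 5′ end was added after the data were examined. Python 3.11.15, pandas 2.3.3, numpy 2.4.6, scipy 1.17.1, statsmodels 0.14.6 and matplotlib 3.10.9 were used.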

Additional observations from a re-analysis of the deposited data

How the results depend on the processing

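The count of 0 bound msp and ssp genes held under the 5 alternatives that could have raised it (a wider window, a looser list, any overlap and each replicate alone), and spe genes bound ran from 6.9% to 13.8%. The share of msp and ssp genes with a pooled summit was 20.9% with a window from 1000 bp upstream to 500 bp downstream, where the share over all genes was 39.5%. From single replicates it ran from 4.65% to 16.3%. The difference between spe genes and msp and ssp genes ran from 14.8 to 40.1 percentage points. It was lowest without replicate 2, with an interval of -4.66 to 34.7. The intervals of this difference count genes as independent and were not used as a test. The median share of repeated words at msp and ssp genes was 6.98% with words of 100 bases. The 4 bound spe genes were 2 (6.9%) with a window from 200 bp upstream to 100 bp downstream, where 3.29% of all genes were bound, and 2 in the 921 stronger peaks, where 3.7% were. No paired analysis was possible because there is 1 group and no test was made between groups. Depth is unknown, so weak binding below the pooled list was not detectable here, and the small number of genes limits every share.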
